A study of Mus musculus with 2112 samples.

Results

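Short-term haematopoietic stem cells (ST-HSC, the ST sort) that carried the submitters' cycling label were compared with ST cells that did not, both without stimulation. Of 2112 wells in the series, 2046 held single cells, and 310 of these were unstimulated ST cells. After wells with a quality label for few genes, transcript percentage or plasma cells were left out, 67 wells with the cycling label and 160 without it remained. The wells were grouped by that label, and the labels do not say which measured values set it. Genes of the cell cycle are therefore treated as used by the label and described without a test, and tests of all other genes assume that those genes did not enter it.

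The cells were isolated from mouse bone marrow by surface markers that the labels do not name, and held in HSPC medium at 37 °C. RNA was read well by well with SMART-seq2, a full-length method without molecular identifiers, so counts are reads and not molecules. These wells came from 7 mice, 4 labelled old and 3 labelled young, and the labels give no strain, sex or age in months. Wells were summed per mouse and label into 7 pairs. The cycling sums held 9 to 16 wells in 6 mice and 2 wells in the mouse young 2-3, and the non-cycling sums held 18 to 30. Long-term stem cells (LT) and multipotent progenitors (MPP) of the same mice, sorted and held in the same way, were used for comparison.

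ST-HSC rebuild blood for a limited time and divide more often than LT-HSC, most of which rest outside the cycle. A cell that enters the cycle first makes the proteins that license and copy DNA, such as the Mcm helicase, and later those that condense and separate chromosomes. Growth before division also needs nucleotides, ribosomes, folded protein and energy, supplied by genes that resting cells use as well.

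Sequences before the start of 4 genes that were higher in cycling wells are shown first, because they hold letters known to be bound by E2F factors, which drive replication genes, or by Myc and related factors (the E-box). The E2F letters searched were TTTCCCGC, TTTGGCGC, TTTGCCGC and TTTCGCGC and the E-box was CACGTG, on both strands, in the 250 bases before each RefSeq start (GRCm38.p6). The E2F and E-box letters do not overlap each other. Each sequence is the 150 bases before the start, 5′ to 3′ on the gene's strand, with the matches in capitals. Cdca7, a replication-linked gene, lies at chr2:72476069-72476218 (plus strand), and Ranbp1, a regulator of nuclear transport, at chr16:18248695-18248844 (minus strand). Tcp1, a chaperonin subunit, lies at chr17:12916179-12916328 (plus strand), and the first of the Ldha starts, a gene of glycolysis, at chr7:46845654-46845803 (plus strand).
Cdca7: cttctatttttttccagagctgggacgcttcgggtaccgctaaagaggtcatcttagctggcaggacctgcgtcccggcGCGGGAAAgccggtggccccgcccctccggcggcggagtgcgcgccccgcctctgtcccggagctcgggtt
Ranbp1: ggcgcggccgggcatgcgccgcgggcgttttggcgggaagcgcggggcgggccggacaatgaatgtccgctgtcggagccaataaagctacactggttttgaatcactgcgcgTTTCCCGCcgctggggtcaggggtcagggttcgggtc
Tcp1: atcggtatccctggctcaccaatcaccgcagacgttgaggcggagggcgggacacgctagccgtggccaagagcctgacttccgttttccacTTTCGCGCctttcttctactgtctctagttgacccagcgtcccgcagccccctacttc
Ldha: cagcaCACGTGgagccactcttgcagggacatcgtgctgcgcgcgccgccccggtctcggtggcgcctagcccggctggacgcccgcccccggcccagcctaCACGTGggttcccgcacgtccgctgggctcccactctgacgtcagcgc
The E2F letters began 71, 37 and 58 bases before the start of Cdca7, Ranbp1 and Tcp1, and the nearer of the 2 E-boxes of Ldha 48 bases before its start. The 150 bases before another Ldha start (chr7:46846932-46847081, plus strand) held neither E2F letters nor an E-box. The 4 genes were chosen after their values were seen. E2F letters stood in 1.86% of all 32851 windows and an E-box in 6.02%. By gene, E2F letters stood in 4.23% of the 6598 matched genes that were tested, in 9.57% of the 94 matched genes outside the cell cycle that were higher by the mean over wells, described further on, and in 23.6% of the 72 matched of 87 cell cycle genes that were higher. For the E-box these shares were 10.5%, 11.7% and 15.3%. A match describes letters in a window and is not evidence of binding.

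Cell cycle genes were read first, as a check of the label. Expression is given as CPM, the count of a gene relative to the library size after TMM scaling. Top2a, which untangles DNA before division, was between 0 and 29.2 CPM in the non-cycling sums (median 3.27) and between 41.3 and 556.9 CPM in the cycling sums (median 221.1), with no overlap. Mki67, the usual marker of dividing cells, was between 0 and 34.4 CPM in the non-cycling sums (median 0.499) and between 0 and 240.5 CPM in the cycling sums (median 76.5). It was higher in 6 of 7 mice, and the exception was young 2-3, whose 2 cycling wells held no Mki67 count.

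Some replication genes were separated between the sums. Mcm2, a helicase subunit, was between 15.6 and 116.5 CPM in the non-cycling sums (median 52.03) and between 307.3 and 639.2 CPM in the cycling sums (median 450). H2afz, a histone variant, was between 239.1 and 406.3 CPM (median 357.5) against 507.96 to 1473 CPM (median 791). Neither overlapped, nor did Mcm3, Mcm7, Cdca7 and Cdc45. Mcm5 and Tyms were higher in 7 of 7 mice with overlapping ranges. Pcna, the clamp of DNA polymerase, was between 34.6 and 97.6 CPM in the non-cycling sums (median 62.5) and between 4.40 and 330.7 CPM in the cycling sums (median 201.35), higher in 6 of 7 mice and lower in young 2-3. Rrm2, which makes deoxynucleotides, was also higher in 6 of 7 and had no count in either sum of young 2-3. Mitotic regulators were absent from some cycling sums: Ccnb1 (cyclin B1) ranged there from 0 to 235.96 CPM and Plk1, a mitotic kinase, from 0 to 51.2 CPM. Ccne1 (cyclin E1), which acts at the entry to S phase, had no count in any non-cycling sum and reached 88.9 CPM in the cycling sums, with counts in 5 of 7.

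Cyclins of early G1 did not separate the sums. Ccnd2 was between 191.2 and 732.8 CPM in the non-cycling sums (median 395.5) and between 155.9 and 731.1 CPM in the cycling sums (median 414.8), and was higher in 1 of 7 mice. Ccnd3 had medians of 199.1 and 218.8 CPM and Ccnd1 of 23.2 and 37.04 CPM, each higher in 4 of 7 mice. Cdk6, their partner kinase, had medians of 78.8 and 153.2 CPM and was higher in 5 of 7 mice.

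Single wells showed how the label was spread along the cycle. With every well thinned to 50000 counts (6 shallower wells left out, 3 of each class), Mki67 was detected in 16 of 64 cycling wells and in 2.55% of the others (4 wells), and Top2a in 26 and in 3.18% (5 wells). Mcm2 was detected in 52 of 64 and in 18.5% (29 wells). Of the listed genes of G1/S and replication, a cycling well held a median of 55.5 (quartiles 40.75 and 72.25, lowest 19) and a non-cycling well a median of 25 (11 to 48). Of the genes of G2 and mitosis, the medians were 46.5 (quartiles 39 and 54.75, lowest 24) and 30 (18 to 52). Above every non-cycling well lay 22 cycling wells in the replication genes alone, 17 in both groups, 3 in the mitotic genes alone and 22 in neither. With both groups added, 32 of 64 cycling and 83.4% of the non-cycling wells fell in the range that the classes share.

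**Figure D1:**
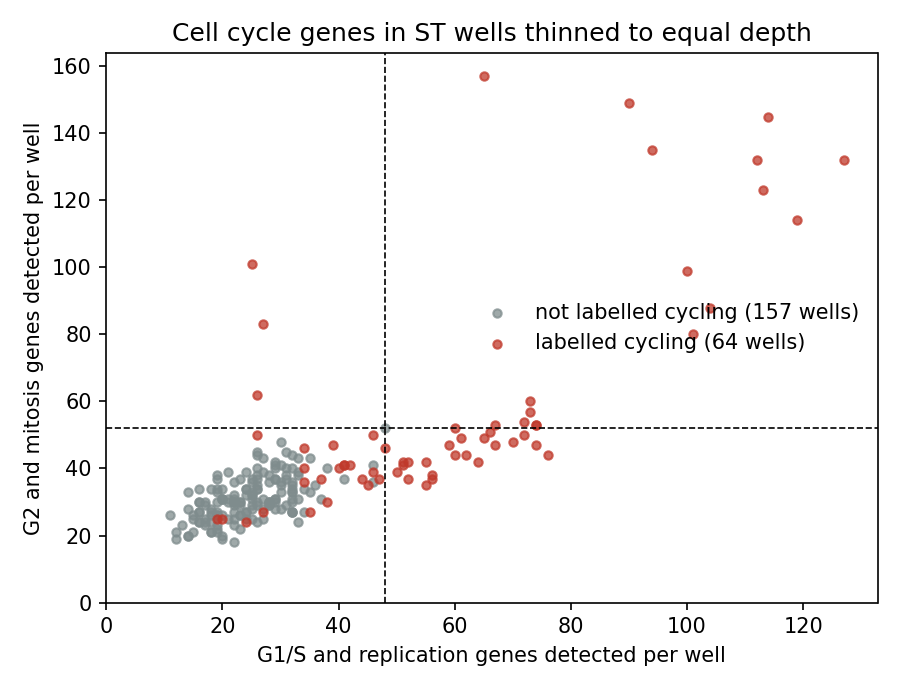
Genes of G1/S and replication (x axis) and of G2 and mitosis (y axis) detected in each unstimulated ST well after thinning to 50000 counts; red points are the 64 wells labelled cycling, grey points the others, and dashed lines mark the highest grey value on each axis (48 and 52). More red points lie beyond the vertical line alone (22) than beyond the horizontal line alone (3).

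The label was carried by a minority of ST wells. Its share was 25% to 44.4% in 6 mice and 7.41% (2 of 27 wells) in young 2-3. Old mice had a mean of 33.55% ± 8.50 (SD, n = 4) and young mice 23.45% ± 15.3 (SD, n = 3). The difference of 10.1 percentage points did not pass a two-sided exact permutation test (p = 0.4, adjusted p = 0.6 over 3 tests, smallest possible p = 0.0571). In MPP the share was 78.8% ± 12.5 (SD, n = 7), and ST minus MPP was -49.55 points, lower in 7 of 7 mice (two-sided exact sign-flip permutation test, p = 0.0156, the smallest it can give, adjusted p = 0.0469). In LT it was 27.4% ± 23.6 (SD, n = 7), and ST minus LT was 1.86 points, higher in 4 of 7 mice (the same exact test, p = 0.875, adjusted p = 0.875). ST was higher than LT in each of the 4 old mice and lower in each of the 3 young mice. The mean difference therefore pools opposite signs, and this split by age was not tested. The LT shares were 4.0% to 13.8% in old and 41.4% to 62.96% in young mice, while the ST ranges of old and young mice overlapped.

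In ST wells held for 2 h with LPS (100 ng/ml) and Pam3CSK4 (1 µg/ml), which activate Toll-like receptors, 16 of 260 carried the label, between 0.0% and 18.5% per mouse over 9 mice. This difference from unstimulated wells was not tested.

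**Figure D2:**
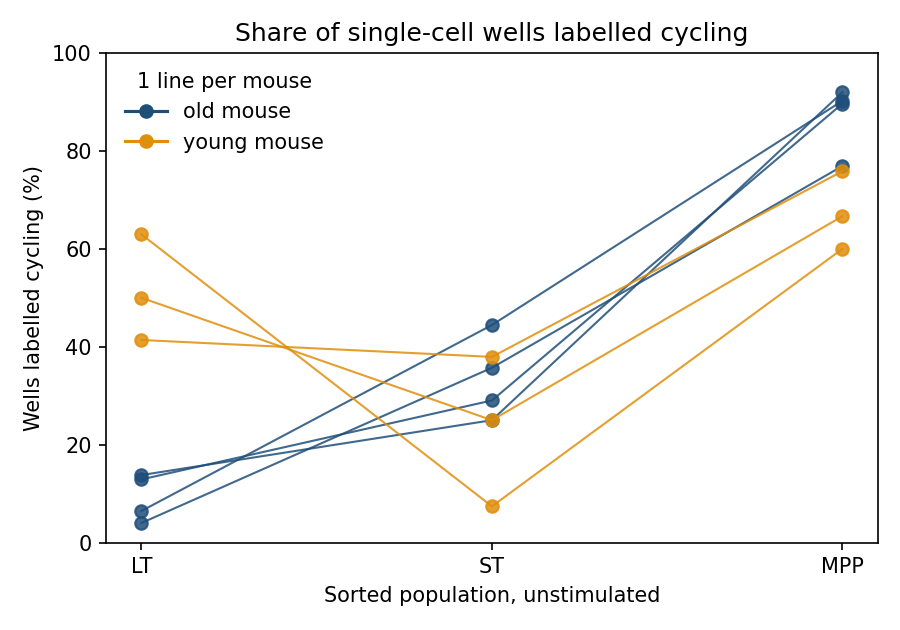
Percentage of kept unstimulated single-cell wells labelled cycling (y axis) in the LT, ST and MPP sorts (x axis), 1 line per mouse, blue for 4 old and orange for 3 young mice. ST lies between 7.41% and 44.4%, below MPP in every mouse, and the old and young mice overlap in ST.

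Cycling wells held more kinds of RNA at equal depth. At 50000 counts, 3546.8 ± 458.6 (SD, n = 7 mice) genes outside the cell cycle lists were detected per cycling well and 2993.4 ± 346.3 per non-cycling well. The difference of 553.4 genes was positive in 7 of 7 mice (two-sided exact sign-flip permutation test, p = 0.0156, the smallest it can give, adjusted p = 0.0469). Total counts without Rn45s, the ribosomal RNA precursor, were 5.43 and 5.42 on the log10 scale, higher in 4 of 7 mice (the same exact test, adjusted p = 0.734). The share of counts from Rn45s was 18.4% and 19.3% (the same exact test, adjusted p = 0.234). A cycling well held a median of 371699 counts (8877 to 798931) and a non-cycling well 340872.5 (12979 to 754110).

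In the paired fit, 6 of 10023 genes passed an adjusted p of 0.05 with edgeR's quasi-likelihood test and Benjamini-Hochberg adjustment (0.0599% called). All 6 are cell cycle genes (Mcm2, Mcm3, Mcm7, Cdc45, Cdca7 and H2afz), which the label may have used, so this count describes the label and nothing is read from it. Of 9755 genes outside the cell cycle lists none passed with edgeR, where 1.27% were higher and 3.93% lower at an unadjusted p under 0.05. DESeq2 called 0.718% of them higher and 2.47% lower, and limma voom with quality weights 0.451% (44 genes) and 0.236% (23 genes). Without young 2-3, edgeR called 5 of 9949 higher (0.0503%) and 1 lower (0.0101%).

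In the sums, fold changes moved with abundance. Outside the cell cycle the median log2 fold change in edgeR was -0.96 below a mean log2 CPM of 4 and -0.07 from 8 upward, and over all tested genes it was -0.37. In every mouse the cycling sum pooled fewer wells than the non-cycling sum, and the part of this in the fold changes was not tested.

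A second measure, chosen after the data were seen, gave each well the same weight. It is the mean over wells of log2(count + 1) after thinning to 50000 counts, compared within mice with limma, weighted by the number of wells. A well without a count enters as 0, so the measure moves with the share of wells that detect a gene as well as with its level. Over all tested genes its median was 0.09, against -0.37 in edgeR. Cycling wells had more genes detected at equal depth, and the part of this in the differences was not tested. Of 8712 genes, 2.43% rose and 13 fell (0.149% called). Of the former, 87 were cell cycle genes, from which nothing is read, since the label may have used them. Outside the cell cycle lists 1.47% of 8503 genes rose and 0.153% fell, 63.6% were above 0 and the median was 0.09, and the lists below are set against these shares. Outside those lists, 77, 63, 61 and 60 genes (0.903%, 0.745%, 0.717% and 0.713%) rose without old 2, old 2-2, old 2-3 and old 3 respectively. Without young 1, young 2-1 and young 2-3 the shares were 1.58%, 1.12% and 1.37%. Those that fell numbered 11, 7, 9 and 5 (0.129%, 0.0828%, 0.106% and 0.0595%) without the same old mice in that order. Without young 1, young 2-1 and young 2-3 they numbered 19, 16 and 13 (0.221%, 0.190% and 0.151%). Below, "rose" and "fell" refer to this measure, with differences ± SE on its log2 scale and limma's adjusted p over all 8712 genes. No gene outside the cell cycle lists passed in edgeR, where the lowest adjusted p among them was 0.147 (edgeR, Fignl1).

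Of the lists outside the cell cycle with at least 10 genes tested, enzymes that make nucleotides and move one-carbon units had the highest median. Of 36 tested members 11 rose, none fell and 34 were above 0 (94.4% against 63.6% of all genes outside the cell cycle), with a median of 0.68 against 0.09. Mthfd1, of folate metabolism, was between 18.98 and 100.8 CPM in the non-cycling sums (median 63.5) and between 61.5 and 328.2 CPM in the cycling sums (median 157.4). The ranges overlapped, and it was higher in 7 of 7 mice (1.26 ± 0.28, adjusted p = 0.00582 with limma, 0.271 with edgeR). Phgdh, which starts serine synthesis, rose by 0.89 ± 0.22. Cad and Ctps, of pyrimidine synthesis, Paics, Pfas and Adsl, of purine synthesis, and Prps1, which makes a precursor of both, also rose, as did Nme1 and Shmt1.

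The summed level of the nucleotide list was 3498 to 4706 CPM in the non-cycling sums (median 3869) and 2948 to 6917 CPM in the cycling sums (median 5824), higher in 6 of 7 mice. The exception was young 2-3, with 2 cycling wells. It was also the only exception in the summed levels of splicing, chaperones, nuclear transport, ribosome biogenesis, oxidative phosphorylation, mitochondrial ribosome and import, and proteasome genes.

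Of 61 splicing and RNA-binding genes 10 rose and none fell (median 0.45). Hnrnpf, an RNA-binding protein, was between 611.5 and 1023 CPM in the non-cycling sums (median 780) and between 730.1 and 1429 CPM in the cycling sums (median 1081). It was higher in 7 of 7 mice with overlapping ranges (1.02 ± 0.14, adjusted p = 6.66e-06 with limma, 0.328 with edgeR). U2af1, which recognises the 3′ splice site, had medians of 77.4 and 166.5 CPM (1.02 ± 0.26). Snrpd1, a core snRNP protein, did not overlap, with 51.2 to 60.8 CPM against 81.3 to 206.9 CPM. Sf3b3, a subunit of the U2 snRNP, rose by 1.20 ± 0.25.

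Ribosome assembly factors and ribosomal proteins differed in their medians by the mean over wells. In edgeR their median log2 fold changes were 0.03 and -0.05. Among members at a mean log2 CPM of 7 or more these were 0.22 (10 genes) and -0.05 (78 genes). Nop56, which guides methylation of ribosomal RNA, was between 103.8 and 190.1 CPM in the non-cycling sums (median 156.8) and between 201.2 and 545.1 CPM in the cycling sums (median 317.2). The groups did not overlap (1.71 ± 0.25, higher in 7 of 7 mice, adjusted p = 2.24e-05 with limma, 0.254 with edgeR). With Bop1 and Npm1, 3 of 56 ribosome biogenesis genes rose and none fell (median 0.34). Of 81 ribosomal protein genes 1 rose, Rpsa, none fell, and the median was 0.02. Rps9 had medians of 1546 and 1466.5 CPM, lower in 7 of 7 mice, and did not pass (-0.21 ± 0.09, adjusted p = 0.212 with limma).

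Of 38 translation factors 2 rose, Eif4a3 and Eif3d, and none fell (median 0.38). Eif4a3, an RNA helicase of the exon junction complex, was between 119.6 and 210.2 CPM in the non-cycling sums (median 145.8) and between 210 and 332.6 CPM in the cycling sums (median 278.2). The ranges touched, and it was higher in 7 of 7 mice (1.41 ± 0.25, adjusted p = 5.24e-04 with limma, 0.274 with edgeR). Of 21 tRNA synthetases, which load amino acids onto tRNA, 1 rose, Mars (1.32 ± 0.26), and 20 were above 0 (95.2% against 63.6%). Their summed level was 2224.6 to 2672 CPM (median 2282) against 2322 to 3565 CPM (median 2794), higher in 7 of 7 mice.

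Of 43 chaperones 6 rose and of 40 nuclear transport genes 4, with medians of 0.34 and 0.40, and none fell. Hspa8, the constitutive Hsp70, rose by 0.31 ± 0.06, and Fkbp4 and Ptges3, partners of Hsp90, by 1.16 ± 0.24 and 1.06 ± 0.24. Tcp1 and Cct7, of the chaperonin that folds actin and tubulin, and Ppia, a prolyl isomerase, were the others. Ranbp1, which holds an E2F match above, had medians of 80.7 and 152.5 CPM and was higher in 7 of 7 mice (1.10 ± 0.27). Nup205 and Nup62, of the nuclear pore, rose by 0.92 ± 0.26 and 1.66 ± 0.28, and Cse1l, an export factor, by 1.02 ± 0.26.

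Energy genes differed in how many passed. Of 75 genes of oxidative phosphorylation 2 rose, Atp5b (0.70 ± 0.13) and Cycs (0.98 ± 0.26), a share of 2.67% against 1.47% of all genes outside the cell cycle, while 69 were above 0 (92% against 63.6%, median 0.42). Of 62 genes of the mitochondrial ribosome and import 1 rose, Timm23 (median 0.33). Of 43 proteasome genes none passed, and 42 were above 0 (97.7% against 63.6%, median 0.47). In glycolysis 5 of 25 rose (20% against 1.47%), namely Tpi1, Gapdh, Pgk1, Ldha and Mif, a cytokine kept on that list, and the list's median was 0.07. Tpi1 was between 292.3 and 595.9 CPM in the non-cycling sums (median 423.7) and between 421.1 and 1133 CPM in the cycling sums (median 612.3), higher in 7 of 7 mice. None of 18 TCA cycle, 29 pentose phosphate and antioxidant, 26 sterol and lipid synthesis or 38 actin cytoskeleton genes passed (medians 0.38, 0.25, 0.20 and 0.12). Of 46 chromatin regulators 1 rose, Cbx3, a heterochromatin protein (0.71 ± 0.20, median of the list 0.18).

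**Figure D3:**
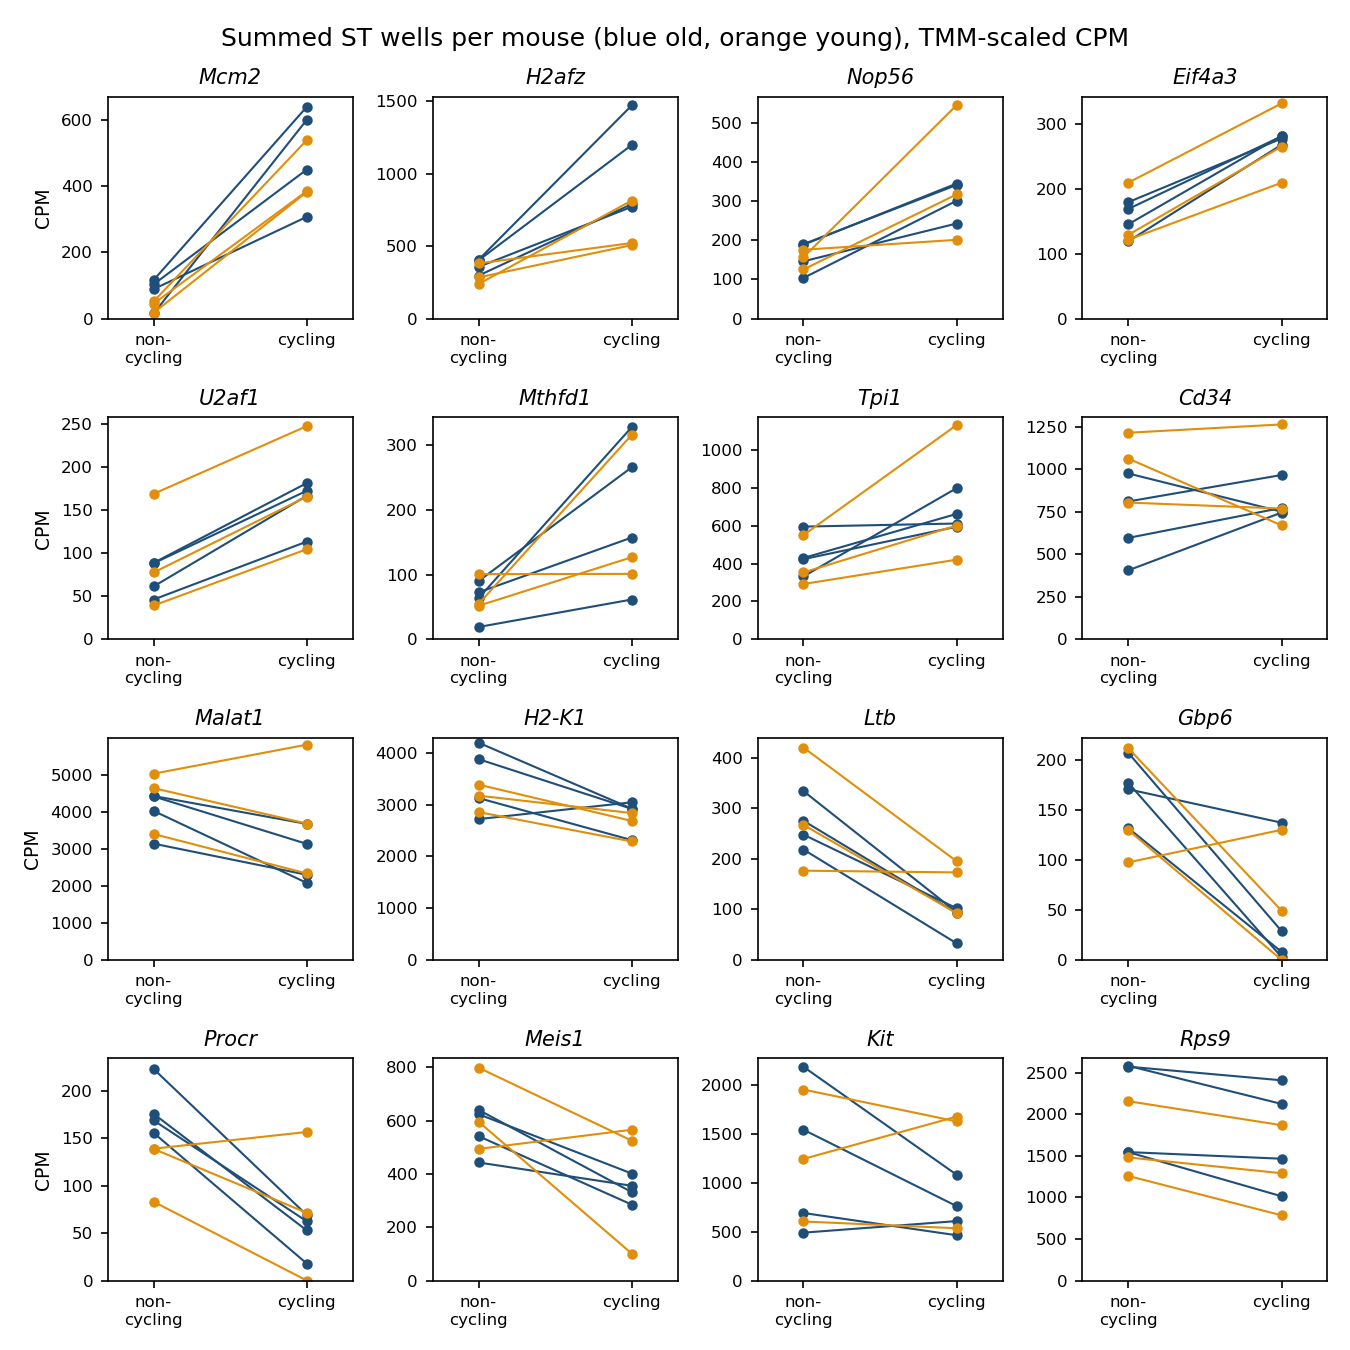
TMM-scaled CPM (y axes, from 0) of 16 genes in the summed non-cycling and cycling ST wells of each mouse, joined by a line, blue for old and orange for young mice. Mcm2, H2afz and Nop56 do not overlap between the classes, Eif4a3, U2af1, Mthfd1 and Tpi1 are higher in 7 of 7 mice, and Ltb and Rps9 are lower in 7 of 7.

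Genes of stem cell identity were lower in sum, and none of them fell singly. For the summed levels here and below, the sum of all genes outside the cell cycle lists was itself lower in 6 of 7 mice, with a median ratio of cycling to non-cycling of 0.977. Their summed level was 8501 to 11127 CPM in the non-cycling sums (median 9854) and 6756 to 9512 CPM in the cycling sums (median 7265), lower in 7 of 7 mice with overlapping ranges and a median ratio of 0.741. Of 42 tested members 7 were above 0 (16.7% against 63.6% of all genes outside the cell cycle), and the median was -0.23 against 0.09. In edgeR, the 15 members at a mean log2 CPM of 7 or more had a median log2 fold change of -0.45, against -0.10 in the 1164 genes at that level. Other lists were as low or nearly so there: interferon response -0.75 (6 genes), quiescence -0.56 (3), lymphoid -0.55 (5), autophagy and lysosome -0.42 (14), NF-κB -0.39 (2). Nucleotide, oxidative phosphorylation, splicing, proteasome, chaperone, mitochondrial ribosome and import, and nuclear transport genes were at 0.54, 0.34, 0.23, 0.21, 0.09, 0.03 and 0.02.

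Procr (EPCR), a surface marker of repopulating stem cells, was between 82.9 and 222.7 CPM in the non-cycling sums (median 155.4) and between 0 and 156.4 CPM in the cycling sums (median 62.3), lower in 6 of 7 mice. Its difference of -0.90 ± 0.26 missed the threshold (adjusted p = 0.0518 with limma, 0.726 with edgeR). Ifitm1, an interferon-inducible membrane protein on the list, had medians of 460.2 and 363.6 CPM (-0.72 ± 0.21, adjusted p = 0.0518 with limma). Hlf, Meis1 and Mecom are transcription factors of stem cells. Their medians were 440.8, 596.1 and 105.6 CPM in the non-cycling and 222.7, 355.5 and 70.97 CPM in the cycling sums, and limma's adjusted p were 0.118, 0.180 and 0.400.

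Tek and Kit did not pass as lower. Tek, the angiopoietin receptor, had medians of 40.8 and 11.1 CPM, and Kit, the stem cell factor receptor, of 1241 and 759.3 CPM. Mycn had medians of 171.2 and 133.04 CPM and Myc of 494.8 and 469.8 CPM. The 1 identity gene that rose was Cd34 (0.82 ± 0.23, adjusted p = 0.0419 with limma), whose surface protein is low on mouse LT-HSC. By CPM it was 405.5 to 1214 in the non-cycling sums (median 810) and 669.9 to 1263 in the cycling sums (median 769), higher in 4 of 7 mice, and edgeR gave a log2 fold change of 0.06 ± 0.17.

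None of 25 genes of the quiescence list passed (median -0.01). Their summed level was 1614 to 2071 CPM in the non-cycling sums (median 1814) and 936.8 to 1752 CPM in the cycling sums (median 1365), lower in 7 of 7 mice (median ratio 0.753). Cdkn1b (p27), an inhibitor of cyclin-dependent kinases, had medians of 34.9 and 14.4 CPM (-0.28 ± 0.22, adjusted p = 0.600 with limma). Cdkn1a (p21), an inhibitor of the same kind, had means of 3.66 and 3.69 CPM and was detected in 3.46% of non-cycling and 6.23% of cycling wells. Cdkn1c (p57) reached 10.6 CPM in the non-cycling and 0.224 CPM in the cycling sums and was detected in 4.10% and 1.43% of wells. Txnip, a thioredoxin inhibitor, had medians of 364.3 and 268.6 CPM (0.04 ± 0.26). Of 14 p53 target genes none passed, and Mdm2, which degrades p53, had medians of 93.8 and 33.2 CPM.

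Genes of the interferon response summed to 2863 to 3667 CPM in the non-cycling sums (median 3091) and 1114 to 3169 CPM in the cycling sums (median 2082), lower in 7 of 7 mice (median ratio 0.678). Of 31 tested members 1 fell, Gbp6, a GTPase of cell defence, and the median was -0.10. Gbp6 was between 97.7 and 211.8 CPM in the non-cycling sums (median 170.8) and between 0 and 137.4 CPM in the cycling sums (median 28.9), lower in 6 of 7 mice (-1.01 ± 0.25, adjusted p = 0.0162 with limma, 0.642 with edgeR). Gbp9 and Gvin1, GTPases outside the list, fell by 0.45 and 0.89. Ifit1 and Irf7 had medians of 55.1 and 50.6 CPM in the non-cycling and 0.0 and 5.57 CPM in the cycling sums and did not pass.

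Of 17 antigen presentation genes 1 fell, H2-K1, a class I heavy chain (median of the list -0.13). H2-K1 was between 2721.5 and 4198 CPM in the non-cycling sums (median 3175) and between 2289 and 3046 CPM in the cycling sums (median 2838), lower in 6 of 7 mice (-0.28 ± 0.07, adjusted p = 0.0127 with limma, 0.491 with edgeR). By the mean over wells H2-K1 was lower in 5 of 7 mice. None of 19 genes answering to NF-κB or Toll-like receptors passed (median -0.18). Tnfaip3 and Nfkbia, which restrain NF-κB, had medians of 16.55 and 122.6 CPM in the non-cycling and 0.503 and 44.6 CPM in the cycling sums, each lower in 7 of 7 mice. By the mean over wells Nfkbia was at -0.59 ± 0.27 and lower in 5 of 7 mice (adjusted p = 0.267 with limma). Tnfaip3 was detected in too few wells to be tested by that measure. None of 12 immediate early genes passed, and Ier3 had medians of 38.9 and 3.85 CPM (-0.54 ± 0.16, adjusted p = 0.0628 with limma).

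Receptors for niche and immune signals summed to 5295 to 8398 CPM in the non-cycling sums (median 6675) and 4766 to 6226 CPM in the cycling sums (median 5348), lower in 7 of 7 mice (median ratio 0.845), and none of 40 passed. Ifngr1, a chain of the interferon gamma receptor, had medians of 231.4 and 81.6 CPM, lower in 7 of 7 mice (edgeR log2 fold change -1.10 ± 0.25, adjusted p = 0.254 with edgeR). By the mean over wells it was at -0.51 ± 0.28 (adjusted p = 0.396 with limma) and higher in 3 of 7 mice, and it was detected in 56.5% of non-cycling and 59.8% of cycling wells. Flt3, a receptor of lymphoid-primed progenitors, had medians of 269.2 and 157.1 CPM, lower in 7 of 7 mice, while it was detected in a mean of 53.6% of non-cycling and 64.8% of cycling wells. None of 45 autophagy and lysosome genes or 17 TGF-β, Notch and Wnt genes passed (medians -0.04 and -0.14). The summed levels of these 2 lists were lower in 7 and 6 of 7 mice (median ratios 0.861 and 0.860).

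Malat1, a nuclear noncoding RNA, fell. It was between 3137.5 and 5026 CPM in the non-cycling sums (median 4412) and between 2077 and 5809 CPM in the cycling sums (median 3130), lower in 6 of 7 mice (-0.45 ± 0.08, adjusted p = 6.41e-04 with limma, 0.410 with edgeR). Zfp874b, a zinc finger gene, did not overlap, with 17.96 to 72.99 CPM against 0 to 6.17 CPM (-0.69 ± 0.15). Abcg3, Ip6k1, Kdm4b, Runx1t1, Tcp11l2 and 2610035D17Rik also fell. Of the genes that rose outside every list, Fignl1, Rfwd3 and Usp37 are known from DNA repair or cycle control (1.41 ± 0.23, 1.26 ± 0.24 and 1.44 ± 0.27), so the cell cycle lists do not hold every gene of the cycle. The genes of this paragraph, and Gbp9 and Gvin1, were named after their values were seen.

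On the lymphoid, myeloid, megakaryocyte and erythroid lists 1 gene passed. Ltb (lymphotoxin beta) was the 1 of 17 lymphoid genes that fell, with 176.4 to 419.8 CPM in the non-cycling sums (median 266.96) and 32.7 to 194.96 CPM in the cycling sums (median 94.2), lower in 7 of 7 mice (-1.05 ± 0.27, adjusted p = 0.0250 with limma, 0.254 with edgeR). By the mean over wells Ltb was lower in 6 of 7 mice. None of 12 myeloid, 16 megakaryocyte or 10 erythroid genes passed. Above 0 were 6, 9 and 10 of them (50%, 56.25% and 100% against 63.6%), with medians of 0.03, 0.09 and 0.20 against 0.09. Mpo, of granulocyte precursors, was between 0 and 58.6 CPM in the non-cycling and between 0 and 247.5 CPM in the cycling sums. Gata1, of erythroid and megakaryocyte cells, had no count in any non-cycling sum, was higher in 4 of 7 mice and reached 58.7 CPM in a cycling sum. Itga2b (CD41) had medians of 37.5 and 53.03 CPM, with 477.2 CPM in the 2 cycling wells of young 2-3. Itgb3, an integrin, had medians of 16.4 and 1.90 CPM, Gata2 of 109.4 and 97.9 CPM and Dntt, of early lymphoid cells, of 9.12 and 0.0 CPM.

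The sort was checked with its markers and with those of other cells. At equal depth Kit was detected in a mean over mice of 97.8% of non-cycling and 98.6% of cycling wells, Cd34 in 80.5% and 93.5%, and Ly6a (Sca-1) in 52.3% and 61.4%. Of 71 markers of other cells, 23 had no count in any sum, among them Cd3e, Pax5, Ms4a1, Ltf, Mcpt8 and Slc4a1. Others had counts in most sums: Cd79b, a B cell receptor chain, had medians of 46.1 and 47.8 CPM, and Itgam (CD11b) of 33.4 and 11.02 CPM. Csf1r, the M-CSF receptor, had counts in 4 non-cycling sums and in 1 cycling sum, where it reached 42.04 CPM. The summed level of 9 erythroblast markers was 7.61 to 108.6 CPM in the non-cycling and 17.5 to 794 CPM in the cycling sums, higher in 5 of 7 mice, and Car1 reached 687.6 CPM in 1 cycling sum. That of T and NK markers was 27.3 to 84.4 CPM and 39.5 to 200.03 CPM, higher in 6 of 7 mice, and came mainly from Nkg7 and Lck. Plasma and B markers summed to 158.4 to 367.2 CPM and 72.6 to 420.7 CPM, and granulocyte and macrophage markers to 15.4 to 74.9 CPM and 12.4 to 146.02 CPM, lower in 5 and 4 of 7 mice. Mast and basophil markers summed to 85.98 to 233.9 CPM and 56.2 to 119.9 CPM, and stroma and endothelium markers to 111.5 to 249.7 CPM and 21.99 to 231.4 CPM, each lower in 5 of 7. The plasma and B sums came mainly from Xbp1 (medians of 169.9 and 151.6 CPM). Those of mast and basophil markers came mainly from Gata2, given above, and those of stroma and endothelium markers mainly from Pecam1 and Emcn. The part of these markers in the results was not tested.

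The difference between old and young mice in cycling minus non-cycling passed in 0 of 10023 genes with edgeR (0.0% called), where 3.34% had an unadjusted p under 0.05 and DESeq2 called 1.68%. By the mean over wells it passed in 0 of 8712 with limma, where 5.93% had an unadjusted p under 0.05. Of the 3 young mice, 1 had 2 cycling wells.

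The same contrast was then read in LT and MPP wells of the same mice, which are other cells. LT gave 6 pairs, since old 2-2 had 1 cycling LT well, and the cycling class held 2 to 17 wells before thinning, with 2, 4 and 4 in the old mice. MPP gave 7 pairs, with 2 to 14 non-cycling wells. By the mean over wells, 4.45% of 9086 genes were called higher and 50 lower (0.55% called) in LT, and 923 of 9259 were higher (9.97% called) and 46 lower (0.497% called) in MPP. Of the genes that rose in ST outside the cell cycle, 96.8% were above 0 in LT and 97.6% in MPP, against 63.8% and 66.9% of all genes outside the cell cycle. Those called higher in LT too numbered 52, which is 41.6% of the ST genes and 20.6% of those called in LT, where 2.85% of all genes outside the cell cycle were called higher. Those called higher in MPP too numbered 76, which is 60.8% of the ST genes and 11.55% of those called in MPP, where 7.38% were. Of the 13 that fell in ST, 13 were below 0 in LT, where 4 passed, and 9 of the 10 tested in MPP, where 3 passed. The 3 sorts carry the same kind of label, so a gene that entered it would be shared by construction.

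Malat1 fell by 0.79 in LT (adjusted p = 9.39e-16 with limma) and by 0.51 in MPP (adjusted p = 5.17e-04 with limma). Nop56 rose by 1.40 ± 0.31 in LT and 1.08 ± 0.30 in MPP, and Ltb fell by 1.14 ± 0.31 and 1.21 ± 0.28. Of 48 stem cell identity genes tested in LT 5 fell (10.4% against 0.566% of all genes outside the cell cycle, median -0.09 against 0.11). Of 36 in MPP none passed, where 0.494% of all genes outside the cell cycle fell. Procr fell by 1.30 in LT (adjusted p = 0.00368 with limma) and was at 0.07 ± 0.20 in MPP, and Hlf fell by 1.73 and was at -0.17 ± 0.32. Meis1 (-0.23 ± 0.24), Mecom (-0.54 ± 0.32), Kit (0.24 ± 0.17) and Tek (0.41 ± 0.30) did not pass in LT. H2-K1 fell by 0.46 in LT and was at -0.08 ± 0.11 in MPP. For none of the 10 genes of this paragraph did the difference between ST and LT or MPP pass with edgeR or limma.

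Over all genes, that difference passed in 0 of 12126 between ST and LT (0.0% called) and 0 of 12126 between ST and MPP (0.0% called) with edgeR. There 2.00% and 12.2% had an unadjusted p under 0.05, and DESeq2 called 0.561% and 11.2%. The median of ST minus MPP over all genes was -1.58 on edgeR's log2 scale, and in MPP the non-cycling sums are those with fewer wells. By the mean over wells limma called 0 genes between ST and LT, where 5.79% had an unadjusted p under 0.05, and 2 between ST and MPP. Both are tubulins among the cell cycle genes, given as a description: Tuba1b differed by 1.56 in ST and 3.22 in MPP, and Tubb5 by 0.80 and 1.73.

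**Figure D4:**
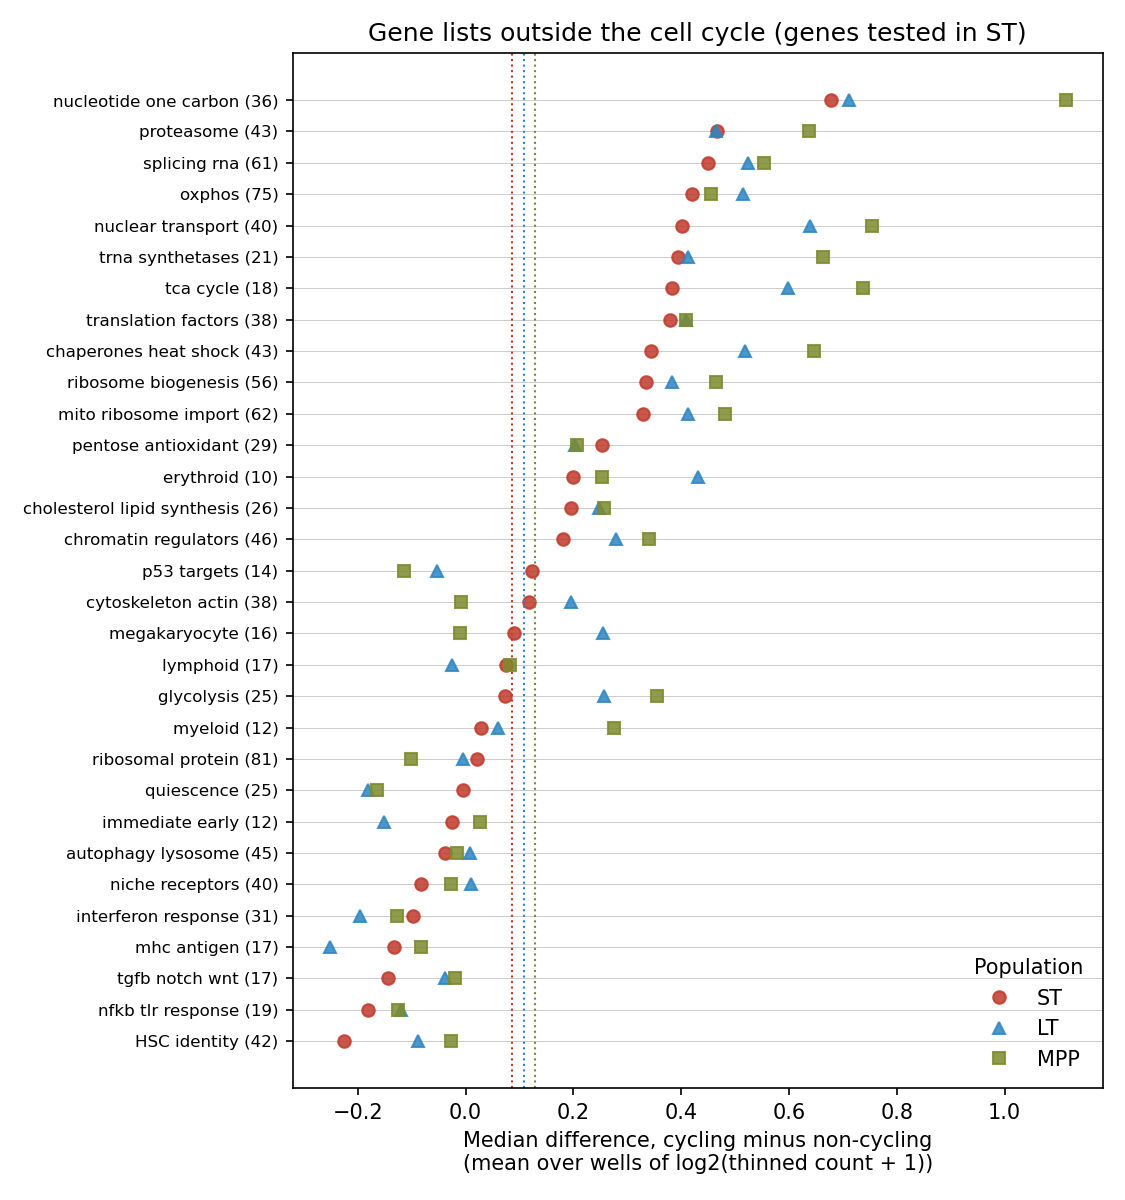
Median over the tested genes of each list of the difference between wells labelled cycling and other wells (x axis, mean over wells of log2(thinned count + 1)), for ST (red circles), LT (blue triangles) and MPP (green squares); dotted lines give the median of all genes outside the cell cycle lists (0.09, 0.11 and 0.13), and the number of genes tested in ST stands beside each name. Shown are the lists outside the cell cycle with at least 10 genes tested in ST, and among these nucleotide and one-carbon genes lie farthest to the right in each sort (0.68, 0.71 and 1.11), and stem cell identity genes lie at -0.23 in ST, -0.09 in LT and -0.03 in MPP.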

How the data were processed

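Single-cell SMART-seq2 wells of unstimulated ST, LT and MPP cells were analysed. The authors deposited expected counts per gene, made with RSEM against mm9 per the submitters' processing notes, and TPM from the same source; versions, aligner and annotation are not given in the sources used here. All 2112 table columns were matched to a sample by title (0 unmatched). For plate 4, titles and labels name the mice differently, and the mouse and plate labels were used.

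Expected counts were summed per mouse and label and rounded. Sums held 751476 to 11920875 counts, and Rn45s stayed in their library sizes. Genes were tested with edgeR 4.0.16 (TMM, filterByExpr, mouse as block), with limma 3.58.1 and DESeq2 1.42.0 as alternatives, in R 4.3.3. Both sums of a pair come from the same mouse; their deviations correlated at r = 0.067 to 0.111 over 4404 genes. The mean over wells left out Rn45s and took genes detected in a share of at least 0.1 of wells. TPM entered as log2(mean TPM + 1). Scripts were tested on simulated data.

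Named genes were, by rule, up to 10 per direction outside the cell cycle lists that passed in edgeR (none did), up to 3 per list with the smallest p, and a fixed set; members of lists that passed by the mean over wells were added after values were seen. The members and lists were chosen with earlier results of these data known. Some named genes are not reported here.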

Additional observations from a re-analysis of the deposited data

Results flagged for a closer look

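In each group of 7 mice, the highest or lowest was compared with the others; chance flags about 1 in 20 such groups. Mice that stood apart among cell cycle genes in the non-cycling sums were old 2-3 for Ccnb1 (62.2 CPM), old 2 for Ccna2 (9.935 CPM, high) and Stmn1 (96.64 CPM, low), young 2-3 for Aurkb (15.08 CPM) and old 2-2 for Plk1 (9.652 CPM). In the cycling sums old 2-3 stood apart for Ccnb1 (235.96 CPM) and Cdk1 (208.3 CPM). Among other genes of the non-cycling sums, Cebpa (1.549 CPM) and Egr1 (35.79 CPM) were high in young 2-1. In the cycling sums, Itga2b was high in young 2-3 (477.2 CPM, 2 wells), Itgb3 (42.87 CPM) and Cdkn1c (0.2244 CPM) in old 3, Cebpa in old 2-2 (3.04 CPM) and Egr1 in old 2 (28.44 CPM). For some flags the other 6 sums were at 0, so any count stood apart. These were Aurkb and Plk1 in the non-cycling sums, Cdkn1c in the cycling sums and Cebpa in both.

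Of genes compared between sorts, Tuba1b and Tubb5 had a smaller difference between cycling and non-cycling wells in ST than in MPP by the mean over wells, with ST minus MPP at -1.661 for Tuba1b and -0.929 for Tubb5 (limma). Both are cell cycle genes.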

How the results depend on the processing

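Counts of genes are given as shares of the genes tested. The 0.05986% called by edgeR (6 genes) was 3.941% with DESeq2, 1.377% with voom weights, 0.2833% with at least 5 wells per sum, 0.2103% with log2(mean TPM + 1), 0.2148% with wells thinned to equal depth, and 2.583% and 3.97% by the mean over wells with and without thinning, both chosen after seeing the data. It was 0.0% in plate set A (plates 1 and 2) and 0.0% in plate set B (plate 4) alone, and 0.009828% to 0.2833% when a mouse was left out. Outside the cell cycle, where edgeR called 0.0%, the first 7 of these settings called 3.188%, 0.6868%, 0.06031%, 0.04341%, 0.01224%, 1.623% and 2.911%, log2(mean TPM + 0.1) called 0.01085%, and leaving out a mouse gave 0.0% to 0.06031%. Without the replicate block, that is without pairing by mouse, the shares were 0.1197% in all and 0.01025% outside the cell cycle, 0.03299% for ST against LT and 0.09896% for ST against MPP. DESeq2 called 1.676% by age, 0.5608% for ST against LT and 11.17% for ST against MPP, and the mean over wells called 0.02183% for ST against MPP. The cause of these differences was not tested. ST minus LT in the share of cycling wells turned to -2.765 points over all single-cell wells and to -4.159, -3.113 and -0.515 without old 2, old 2-2 and old 2-3, and reached 11.43 without young 2-3. ST minus MPP was -51.48 to -46.64 points with a mouse left out, lower in every mouse kept (adjusted p = 0.09375 in each set, exact test). With a mouse left out, this is the lowest adjusted p the test can give unless another test beside it is as low. The failure to pass there is set by the number of mice. The difference in log10 counts turned to -0.01988 without young 2-3 and reached 0.06033 without young 1. That in Rn45s share was -1.243 points without young 1 (adjusted p = 0.04688, exact test) and -0.6115 without young 2-1. The difference in detected genes was 478.9 to 618.9 with a mouse left out. Its adjusted p was 0.09375 (exact test), the same lowest value, except without young 1. There the Rn45s share reached an equally low p, and both passed (adjusted p = 0.04688, exact test). Without thinning and with all mice kept, the difference in detected genes was 615.7 (adjusted p = 0.09375, exact test). Of the values of single named genes under these settings, 95.4% kept their call, 4.205% newly passed, 9 moved and none turned.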
